A study of Mus musculus with 20 samples.

Results

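Mixed carcinomas were the tumors that the labels place neither among the poorly differentiated nor among the undifferentiated epidermal carcinomas of a mouse model of p53 loss. The study describes them as holding both differentiated and undifferentiated areas. The share of each area in the assayed pieces was not given in the sources used here, so middle values in every cell and a mixture of areas cannot be told apart in this bulk RNA. The 4 tumors labelled mixed were set against the 6 labelled poorly differentiated, out of 20 samples on Affymetrix MOE430 2.0 arrays. Both classes shared the FVB strain, the deletion of Trp53 in stratified epithelia by Cre under the keratin 14 promoter, and spontaneous growth in the skin. Mixed tumors 1, 2 and 3 came from Trp53ΔEC mice (k14Cre;p53loxP/loxP) and mixed tumor 4 from an RbΔEC; Trp53ΔEC mouse (k14Cre;p53loxP/loxP;pRbloxP/loxP). Poorly differentiated tumors 1 and 2 were Trp53ΔEC and tumors 3 to 6 were RbΔEC; Trp53ΔEC, so genotype was unequal between the classes. The other arrays held 3 undifferentiated carcinomas, 2 spindle cell carcinomas and 5 skin samples from wild type mice of 2 months. These were left out of the test, and the ages of the tumor-bearing mice were not given in the sources used here. Because the k14Cre transgene acts in stratified epithelia, stromal and immune cells in each piece of tumor were not targeted. Nothing in the labels tells whether any mouse gave more than 1 tumor, so p-values reflect the spread between these samples only, and the small number of arrays limits their precision.

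Keratinocytes divide in the basal layer, where they make keratins 5 and 14 and rest on hemidesmosomes. On leaving it they make keratins 1 and 10 and then the small proline-rich, late cornified envelope and filaggrin-family proteins, which transglutaminases crosslink into the cornified envelope. Wounded or hyperproliferative epidermis replaces keratins 1 and 10 with keratins 6, 16 and 17 and secretes defensins, EGF-family ligands and interleukin 1 family cytokines. In squamous carcinoma, grade follows how much of this programme the tumor cells keep.

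The genes that set the classes furthest apart were of this kind. Of the 12 genes with the largest decrease in mixed tumors, Sprr1b, Sprr2d, Sprr2f, Sprr2h, Lce3f and Krtdap belong to cornification, and Krt6b, Krt16, Defb3, Defb6 and Serpinb2 to the wounded or inflamed keratinocyte. The remaining gene was Stfa3, a stefin that inhibits cysteine proteases. Subunits of AP-1, the Fos and Jun family of transcription factors, were also lower, as given further on, so the promoters were searched for the AP-1 letters TGANTCA and for the TATA box TATAAA on both strands. The window ran from 250 bases before to 50 bases after the RefSeq start of each gene on GRCm38.p6. Of the 12 genes, 10 had a window in the table, 7 held the AP-1 letters and 6 the TATA letters, against 8.973% and 15.667% of 27025 genes with a window. The AP-1 letters were in 12 of 37 windows of the whole suprabasal list and 3 of 12 of the stress list, and the TATA letters in 15 and 6. Near-copy Sprr2 promoters were counted separately. None of the 12 genes with the largest increase held the AP-1 letters, but beside a share of 8.973% so few windows cannot show a lack of them. These matches are descriptions of sequence, and binding was not measured. The 5 windows printed here were chosen because they carry both motifs and belong to genes with some of the largest decreases. Capitals mark the AP-1 and TATA letters, and each window is read along the strand of its gene. They lie at chr3:92438730-92439029 on the minus strand (Sprr1b), and on the plus strand at chr3:92338890-92339189 (Sprr2d), chr3:92385435-92385734 (Sprr2h), chr7:30787655-30787954 (Krtdap) and chr1:107511173-107511472 (Serpinb2).
Sprr1b: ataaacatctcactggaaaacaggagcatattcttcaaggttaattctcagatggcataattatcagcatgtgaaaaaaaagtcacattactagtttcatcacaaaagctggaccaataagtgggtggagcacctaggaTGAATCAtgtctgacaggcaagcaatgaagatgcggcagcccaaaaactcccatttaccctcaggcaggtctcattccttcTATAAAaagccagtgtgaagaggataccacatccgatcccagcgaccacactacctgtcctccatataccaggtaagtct
Sprr2d: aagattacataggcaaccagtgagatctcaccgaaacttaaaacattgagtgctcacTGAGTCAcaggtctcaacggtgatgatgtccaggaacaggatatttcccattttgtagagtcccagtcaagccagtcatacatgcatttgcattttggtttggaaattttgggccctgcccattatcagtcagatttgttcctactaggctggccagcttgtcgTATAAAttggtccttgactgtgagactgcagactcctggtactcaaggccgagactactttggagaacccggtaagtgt
Sprr2h: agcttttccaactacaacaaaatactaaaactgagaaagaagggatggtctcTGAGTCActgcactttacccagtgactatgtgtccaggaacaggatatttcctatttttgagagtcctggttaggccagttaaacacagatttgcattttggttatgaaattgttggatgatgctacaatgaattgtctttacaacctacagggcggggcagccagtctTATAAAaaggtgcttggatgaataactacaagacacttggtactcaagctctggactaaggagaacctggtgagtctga
Krtdap: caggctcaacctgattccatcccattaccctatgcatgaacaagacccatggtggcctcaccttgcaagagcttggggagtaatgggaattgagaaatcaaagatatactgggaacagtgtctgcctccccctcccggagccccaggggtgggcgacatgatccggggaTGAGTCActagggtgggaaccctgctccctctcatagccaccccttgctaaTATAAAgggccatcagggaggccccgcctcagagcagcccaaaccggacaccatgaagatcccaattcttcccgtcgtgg
Serpinb2: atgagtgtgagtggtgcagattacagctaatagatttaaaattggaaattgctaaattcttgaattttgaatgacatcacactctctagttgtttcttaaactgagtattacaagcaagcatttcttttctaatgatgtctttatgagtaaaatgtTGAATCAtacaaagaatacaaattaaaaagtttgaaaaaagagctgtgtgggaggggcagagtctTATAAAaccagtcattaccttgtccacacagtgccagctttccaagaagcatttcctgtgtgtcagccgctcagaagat
The TATA letters began 29 or 30 bases before the start in all 5 windows. The AP-1 letters began 81 bases before it in Krtdap, 94 in Serpinb2, 111 in Sprr1b, 193 in Sprr2d and 198 in Sprr2h.

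Array quality measures overlapped between the classes. The 3′ minus 5′ log2 difference of the Actb control probes was 0.383 to 0.66 in mixed tumors and 0.419 to 0.821 in poorly differentiated tumors, and array medians were 5.705 to 5.731 and 5.684 to 5.749 log2 units in the same order. For the Gapdh control probes the 3′ minus 5′ difference was -0.052 to 0.181 in mixed tumors and -0.007 to 0.424 in poorly differentiated tumors. It was highest in poorly differentiated tumor 1. No pair of arrays held identical values. Rb1, deleted in the epithelium of 1 mixed and 4 poorly differentiated tumors, was at 7.85, 8.26, 8.46 and 6.55 in mixed tumors 1 to 4, against 8.84 and 8.33 in the Trp53ΔEC and 6.88 to 7.53 in the RbΔEC; Trp53ΔEC poorly differentiated tumors. Every tumor labelled RbΔEC; Trp53ΔEC of these classes was thus below every tumor labelled Trp53ΔEC, and the difference between the classes, 0.11, did not pass the test (SE 0.47, limma adjusted p = 0.902). Trp53 was not analysed here. The markers of stratified epithelium, Krt5 and Trp63, were low in mixed tumor 4, at 6.05 and 3.80, within the range of the undifferentiated and spindle cell carcinomas, which ranged from 5.10 to 9.82 for Krt5 and from 3.68 to 6.80 for Trp63.

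Expression differed widely between the classes. Of 18193 genes, 1344 were higher in mixed tumors (7.39%) and 1265 were lower (6.95%) at a limma adjusted p under 0.05. These shares are the background for every count of list members against poorly differentiated tumors given below. Over 45037 probesets, 2286 were higher (5.08%) and 2034 lower (4.52%). For 1105 genes (6.07%) every mixed tumor lay above every poorly differentiated tumor, and for 1231 genes (6.77%) every mixed tumor lay below. The median difference over all genes was -0.00074. Leaving out mixed tumor 3 reduced the counts of genes to 853 higher and 832 lower, the lowest of any tumor left out. With genotype as a covariate the counts were 1115 and 1065. Within genotypes the design was thin: 13 genes were higher and 99 lower among Trp53ΔEC tumors (3 mixed against 2 poorly differentiated), and 925 were higher and 676 lower among RbΔEC; Trp53ΔEC tumors (1 against 4, the lone mixed tumor assumed to vary like the others).

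The 4 mixed tumors were not a tight class. The Pearson distance (1 minus the correlation over all probesets) averaged 0.0656 between pairs of mixed tumors, with a range of 0.0442 to 0.0905, against 0.0364 between pairs of poorly differentiated tumors. Mixed tumors lay on average 0.0925 from poorly differentiated tumors, 0.079 from undifferentiated and spindle cell carcinomas and 0.1234 from skin. Distances between the classes exceeded those within them by 0.0478 (one-sided exact permutation test, p = 0.00476, the smallest that the arrangements of 10 tumors allow). By mean distance, mixed tumors 1, 3 and 4 were nearer to the undifferentiated and spindle cell carcinomas than to the poorly differentiated tumors. The means were 0.0675 against 0.0807, 0.0746 against 0.0904 and 0.083 against 0.1134. Mixed tumor 2 was the other way round, at 0.0907 from the undifferentiated and spindle cell carcinomas and 0.0855 from the poorly differentiated tumors, and it was also the farthest from the other mixed tumors (0.0785).

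**Figure D1:**
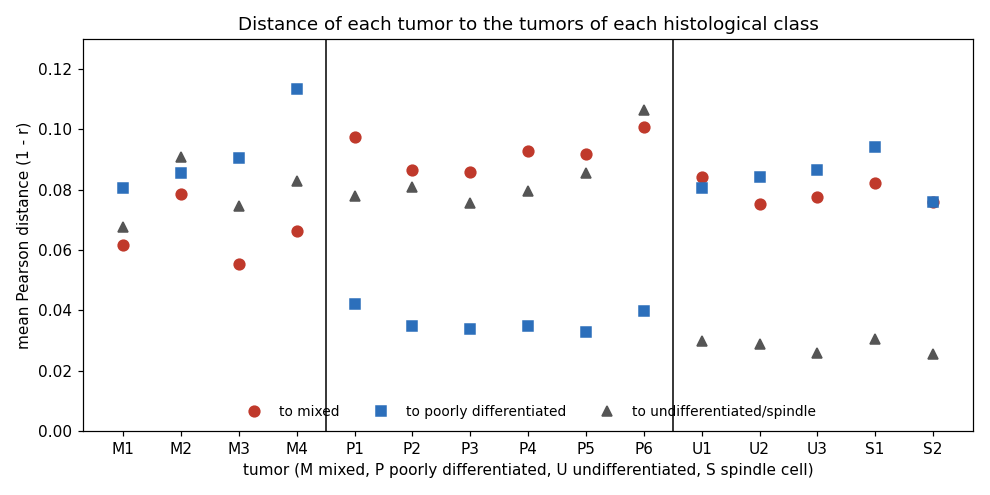
Mean Pearson distance (1 minus the correlation over all probesets, no unit) of each tumor to the tumors of each histological class. The means of the mixed tumors lie between 0.0555 and 0.0785 to one another and between 0.0807 and 0.1134 to the poorly differentiated tumors. Single pairs overlap, at 0.0442 to 0.0905 and 0.073 to 0.1226 in the same order.

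Cornification genes were low in all 4 mixed tumors. Of 42 measured members of the suprabasal differentiation list, 36 were lower in mixed tumors and none was higher, beside 6.95% of all genes lower, and the median difference was -4.42. In 31 members every mixed tumor lay below every poorly differentiated tumor, beside 6.77% of all genes. Sprr1b, a small proline-rich precursor of the cornified envelope, was at 3.88, 3.78, 6.43 and 3.68 in mixed tumors 1 to 4, against 12.06 to 13.26 (median 12.53) in poorly differentiated tumors. All mixed tumors were far below the poorly differentiated class, and mixed tumor 3 stood above the other mixed tumors. The log2 difference was -8.13 (SE 0.51, limma adjusted p = 2.76e-05). Mixed tumors 1, 2 and 4 were below 4.22, the 25th percentile of all probeset values in these 10 tumors. No detection calls were used here, so no fold is given.

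Sprr2d showed the same order, at 4.95, 4.80, 6.57 and 4.73 in the mixed tumors and 12.20 to 13.19 (median 12.56) in poorly differentiated tumors (difference -7.33, SE 0.36, limma adjusted p = 1.54e-05). Sprr2f (difference -7.98) and Sprr2h (-7.85) were lower as well, but the Sprr2 genes are near copies and their probes may share signal, so the members of this cluster are not separate evidence. Krtdap, a secreted peptide of differentiating keratinocytes, was at 5.62, 5.72, 9.80 and 4.10 in the mixed tumors and 13.33 to 13.90 (median 13.63) in poorly differentiated tumors. Mixed tumor 3 again had the highest value of its class, yet it was below the lowest poorly differentiated tumor. The difference of Krtdap was -7.28 (SE 0.87, limma adjusted p = 0.000825), and that of Lce3f, a late cornified envelope protein, was -6.82 (SE 0.45, adjusted p = 3.29e-05). Among Trp53ΔEC tumors alone 10 of the suprabasal members were lower, and among RbΔEC; Trp53ΔEC tumors alone 27.

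Stress and wound keratinocyte genes followed. Of 21 measured members 17 were lower in mixed tumors, none was higher, and the median difference was -4.30. Defb3, a beta-defensin that kills bacteria at inflamed epithelia, was at 3.66, 3.59, 3.65 and 3.74 in mixed tumors 1 to 4, against 10.34 to 12.90 (median 12.28) in poorly differentiated tumors. The mixed tumors lay far below the other class and below the 25th percentile of all values, so only the difference on the RMA scale is given (-8.18, SE 0.52, limma adjusted p = 2.76e-05). Krt6b, a keratin of wounded epidermis, was at 4.85, 5.88, 10.72 and 4.80 in mixed tumors and 13.57 to 14.504 (median 14.37) in poorly differentiated tumors. Mixed tumors 1, 2 and 4 were low, and mixed tumor 3 took a middle value (difference -7.70, SE 1.01, limma adjusted p = 0.00134). Krt16, its type I partner, was at 7.34, 5.48, 8.21 and 4.25 against 12.46 to 14.15 (median 13.59) (difference -7.18, adjusted p = 0.000264). Mixed tumor 4 was the lowest of the class for Krt16. Serpinb2, a plasminogen activator inhibitor whose promoter is printed above, was at 4.36, 3.99, 6.21 and 5.69 in the mixed tumors and 11.16 to 12.001 (median 11.59) in poorly differentiated tumors (difference -6.55, SE 0.41, adjusted p = 2.76e-05).

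**Figure D2:**
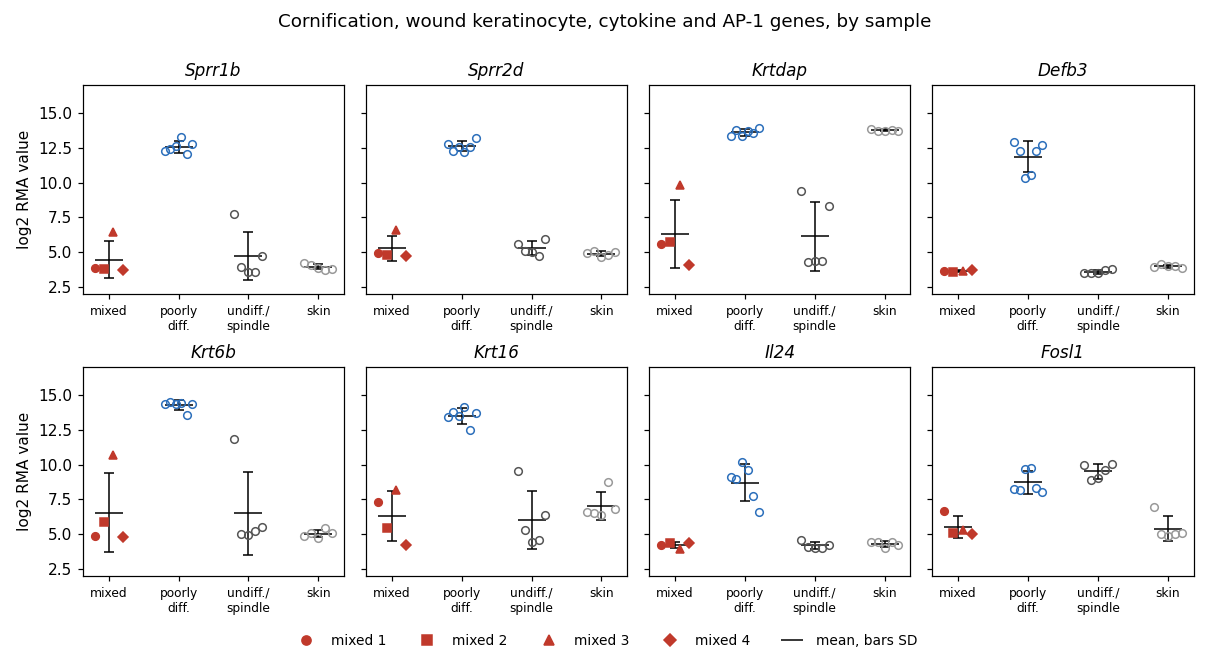
Log2 RMA level of 8 genes in mixed, poorly differentiated, undifferentiated or spindle cell, and skin samples (points are samples, bars the mean with SD, symbols mark mixed tumors 1 to 4). For Sprr1b the mixed tumors sit between 3.68 and 6.43 and the poorly differentiated tumors between 12.06 and 13.26.

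Enzymes that make the lipids of the skin barrier were lower with the cornification genes. In this list 15 of 21 members were lower in mixed tumors, 2 were higher, and the median difference was -1.87. Cyp4f39, which hydroxylates very long fatty acids for barrier ceramides, was at 4.96, 4.56, 5.48 and 4.75 in mixed tumors 1 to 4 and 8.26 to 10.34 (median 9.15) in poorly differentiated tumors. The classes did not overlap (difference -4.21, SE 0.38, limma adjusted p = 0.000204). Elovl4, which elongates such fatty acids (difference -4.12), and Sult2b1, a cholesterol sulfotransferase (-4.01), were lower too (adjusted p = 0.00078 and 0.00154). Fads2, a fatty acid desaturase chosen after its values were seen, was 1 of the 2 members that were higher, at 9.18, 9.76, 9.16 and 7.63 in the mixed tumors and 5.17 to 6.91 (median 6.19) in poorly differentiated tumors (difference 2.78, adjusted p = 0.00318).

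Signals that keratinocytes send were also low. Epgn, an EGF receptor ligand, was at 5.23, 5.89, 5.14 and 4.72 in mixed tumors 1 to 4, against 9.30 to 11.26 (median 10.32) in poorly differentiated tumors. All 4 were well below the lowest poorly differentiated tumor (difference -5.05, SE 0.46, limma adjusted p = 0.000212). Ereg, a second ligand of the same receptor, was at 8.26, 4.05, 5.66 and 4.78 in mixed tumors and 8.95 to 11.52 (median 10.17) in poorly differentiated tumors, with mixed tumor 1 close to the lowest of them (difference -4.52, adjusted p = 0.00446). Among 36 growth factors and receptors 6 were lower and 3 higher, beside 6.95% and 7.39% of all genes.

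Of 32 cytokines and chemokines, 17 were lower in mixed tumors and none was higher, with a median of -1.71. This count was 7 without mixed tumor 3, 10 without mixed tumor 1, 11 without poorly differentiated tumor 3, 12 with genotype as a covariate, and 4 and 1 within Trp53ΔEC and within RbΔEC; Trp53ΔEC tumors. Il24, an interleukin 10 family cytokine made by keratinocytes, was at 4.21, 4.36, 3.94 and 4.39 in the mixed tumors, against 6.61 to 10.22 (median 9.03) in poorly differentiated tumors (difference -4.48, SE 0.61, limma adjusted p = 0.0016). All 4 mixed tumors were low. Cxcl2 and Cxcl3, which draw neutrophils, split the mixed class. Cxcl2 was at 4.06, 5.81, 6.46 and 11.69 in mixed tumors 1 to 4 and 10.81 to 12.41 (median 11.07) in poorly differentiated tumors, and Cxcl3 was at 3.64, 3.65, 4.49 and 10.39 and 9.32 to 12.36 (median 10.66). Mixed tumor 4 reached the poorly differentiated range for both, while the other mixed tumors were far below it. The differences were -4.31 (adjusted p = 0.0389, or 0.0979 with genotype as a covariate) and -5.20 (adjusted p = 0.0243, or 0.0644). The call on Cxcl2 was lost on leaving out any one tumor except mixed tumor 4, with an adjusted p of up to 0.0978, and that on Cxcl3 on leaving out mixed tumor 1, 2 or 3 (0.0622, 0.0514 and 0.0714). Further members that were lower and were chosen after their values were seen were Il1b (difference -3.40, adjusted p = 0.0077), Il6 (-3.72, 0.0111) and Ptgs2, the inducible cyclooxygenase (-3.75, 0.0173).

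AP-1 subunits belonged to the immediate early genes, of which 11 of 24 were lower in mixed tumors and 1, the heat shock gene Hsph1 (chosen after its values were seen), was higher (median -1.42). Within Trp53ΔEC tumors none was called in either direction, within RbΔEC; Trp53ΔEC tumors 9 were lower, and the higher call was lost on leaving out any mixed tumor. Fosl1, an AP-1 subunit of the Fos family, was at 6.67, 5.07, 5.33 and 5.03 in mixed tumors 1 to 4, against 8.05 to 9.78 (median 8.30) in poorly differentiated tumors. No value overlapped, and mixed tumor 1 was the highest of its class (difference -3.19, SE 0.46, limma adjusted p = 0.00219). Junb was at 8.54, 7.47, 7.09 and 7.16 in the mixed tumors and 9.73 to 10.98 (median 10.75) in poorly differentiated tumors (difference -3.02, adjusted p = 0.000487). Fos (-2.74, adjusted p = 0.000613) and Dusp1, a phosphatase that switches off MAP kinases (-2.29, 0.0024), were lower without overlap as well.

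Neutrophil, T and NK cell and mast cell genes moved with these lists. Of 12 neutrophil genes 8 were lower in mixed tumors, of which S100a8 and S100a9 also stand in the keratinocyte stress list, and the mean level of the list was 4.89 to 7.26 in mixed tumors and 8.16 to 10.29 in poorly differentiated tumors. S100a9, a calcium-binding alarmin, was at 4.97, 9.35, 9.11 and 12.41 in the mixed tumors and 13.98 to 14.63 (median 14.43) in poorly differentiated tumors. Mixed tumor 4, the one with high Cxcl2 and Cxcl3, was the highest and mixed tumor 1 the lowest of the class (difference -5.37, SE 1.09, limma adjusted p = 0.011). Trem1, a receptor of neutrophils and monocytes, was lower without overlap (difference -3.33, adjusted p = 0.00283). Of 19 T and NK cell genes 8 were lower, and the mean of the list was 5.17 to 5.35 in mixed tumors against 5.61 to 6.55 in poorly differentiated tumors. With only features above the median level kept, 0 were called. Gzmb, for 1, was at 4.91, 4.32, 4.26 and 4.09 in mixed tumors 1 to 4, near 4.22, the 25th percentile of all probeset values. Icos, a T cell costimulator, was at 4.94, 4.46, 4.45 and 4.53 and 5.65 to 7.93 (median 7.01) in the same order (difference -2.40, adjusted p = 0.00374), and Gzmb, the cytotoxic granule protease granzyme B, differed by -2.04 (adjusted p = 0.0072). The share of macrophage genes lower was close to the 6.95% of all genes, at 2 of 24 (4 without poorly differentiated tumor 6), which were Clec4d (-3.32, 0.016) and Clec4n (-1.96, 0.0106), and the mean of the list overlapped, at 7.44 to 7.88 in mixed tumors and 7.28 to 10.39 in poorly differentiated tumors. B and plasma cell genes gave 1 of 11 lower, Sdc1 (-0.79, 0.0462), a proteoglycan that keratinocytes also make. The mean of that list did not overlap, at 5.96 to 6.10 in mixed tumors and 6.33 to 8.94 in poorly differentiated tumors. In 3 of its members every mixed tumor lay below every poorly differentiated tumor, beside 6.77% of all genes. Langerhans and dendritic cell genes gave 1 of 14 lower, the integrin chain Itgax (-2.03, 0.0131). Mast cell genes gave 3 of 12 lower, with Mcpt1 at -2.82 (adjusted p = 0.0059). Within Trp53ΔEC tumors alone 3 neutrophil and no T and NK cell genes were lower, and the same counts held within RbΔEC; Trp53ΔEC tumors. In bulk RNA, fewer cells of a type and less RNA per cell cannot be told apart, and the part of leukocyte content in the cytokine counts was not tested.

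The epithelial programme below cornification varied among the mixed tumors. Of 23 basal keratinocyte genes 8 were lower in mixed tumors (median -1.43), of 29 junction genes 14 (median -1.93) and of 27 regulators of epithelial identity 11 (median -1.71), and none was higher. Relative to the mean of the poorly differentiated tumors, the median member of the basal list was -0.59 in mixed tumor 1, -1.25 in mixed tumor 2, -1.56 in mixed tumor 3 and -2.35 in mixed tumor 4. Junction genes kept that order, at -1.004, -1.33, -1.97 and -3.10. Identity regulators did not, at -1.19, -0.36, -1.62 and -3.57, with mixed tumor 2 inside the poorly differentiated range (-0.51 to 0.58). The basal count was 14 without mixed tumor 1, 5 without mixed tumor 3, 4 without poorly differentiated tumor 4, 5 without poorly differentiated tumor 3, 5 or 6, and 13 within RbΔEC; Trp53ΔEC tumors. Without mixed tumor 3 the junction and identity counts were 9 and 7, without mixed tumor 2 the identity count was 17, and none of the 3 lists had more than 1 member called within Trp53ΔEC tumors.

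Krt14, whose promoter drives the Cre of this model, was at 12.02, 10.25, 10.89 and 8.85 in mixed tumors 1 to 4, against 14.18 to 14.56 (median 14.40) in poorly differentiated tumors. The classes did not overlap (difference -3.85, SE 0.48, limma adjusted p = 0.000998). Krt5, its partner, was at 12.83, 10.01, 10.53 and 6.05 and 13.60 to 14.10 (median 13.80) in the same order, and mixed tumor 4 lay far below the other mixed tumors (difference -3.996, adjusted p = 0.0262, or 0.0526 without mixed tumor 3 and 0.0512 without poorly differentiated tumor 4). Trp63, the transcription factor of stratified epithelia, was chosen after its values were seen and did not pass the test. It was at 11.35, 9.78, 8.85 and 3.80 in the mixed tumors and 11.72 to 12.44 (median 11.91) in poorly differentiated tumors, with mixed tumor 1 just below the poorly differentiated range and mixed tumor 4 far below it (difference -3.56, SE 1.16, adjusted p = 0.0684). With genotype as a covariate the difference was -4.53 (adjusted p = 0.0309), and without mixed tumor 4 it was -2.01 (adjusted p = 0.0265).

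Junction genes did not move as one. Dsc1, a desmocollin of the upper epidermis, was at 4.10, 4.15, 7.36 and 3.68 in mixed tumors 1 to 4 and 9.96 to 11.68 (median 11.29) in poorly differentiated tumors. It followed the cornification genes, low in all 4, with mixed tumor 3 highest (difference -6.28, SE 0.67, limma adjusted p = 0.000446). Gjb2, a gap junction connexin induced in inflamed epidermis, was at 8.99, 7.64, 7.02 and 5.33 and 11.34 to 13.43 (median 12.87) in the same order (difference -5.30, adjusted p = 0.00129). Cdh1, the E-cadherin of adherens junctions, and Epcam, both chosen after their values were seen, did not pass the test. Cdh1 was at 11.20, 10.93, 9.55 and 6.82 in the mixed tumors and 10.99 to 12.26 (median 11.54) in poorly differentiated tumors, so that mixed tumor 1 was inside the range of that class, mixed tumor 2 just below it, and mixed tumors 3 and 4 further below (difference -1.93, adjusted p = 0.12). Epcam was at 11.47, 13.05, 10.55 and 6.74 and 9.97 to 12.82 (median 10.78), with mixed tumor 2 above all poorly differentiated tumors and mixed tumor 4 below all of them (difference -0.70, adjusted p = 0.735).

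Among the identity regulators, Klf5, which keeps epithelial progenitors dividing, was at 7.49, 7.68, 8.10 and 8.22 in mixed tumors 1 to 4 and 10.63 to 11.39 (median 10.88) in poorly differentiated tumors (difference -3.11, SE 0.20, limma adjusted p = 2.76e-05). Ovol1 and Grhl3, transcription factors of terminal differentiation, differed by -4.13 (adjusted p = 6.67e-05) and -4.07 (adjusted p = 0.000536). All 3 were low in every mixed tumor. Ehf, an ETS factor of epithelia, was at 5.56, 9.504, 4.76 and 3.58 in the mixed tumors and 9.36 to 10.06 (median 9.92) in poorly differentiated tumors. Mixed tumor 2 lay inside that range and the other mixed tumors far below (difference -4.01, adjusted p = 0.0182, or 0.0583 without mixed tumor 3). Krt8, a keratin of simple epithelia, was the member of its list that was higher, at 7.96, 11.03, 9.87 and 6.45 in mixed tumors 1 to 4 and 4.75 to 7.24 (median 5.06) in poorly differentiated tumors. Mixed tumor 2 was highest and mixed tumor 4 lay inside the poorly differentiated range (difference 3.36, SE 0.84, adjusted p = 0.0257). The call was lost with genotype as a covariate (2.93, adjusted p = 0.0678), without mixed tumor 3 (3.01, 0.0776) and, at adjusted p between 0.05 and 0.0534, without poorly differentiated tumor 2, 3 or 5. Krt18, its partner, did not pass the test (difference 2.72, adjusted p = 0.088).

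**Figure D3:**
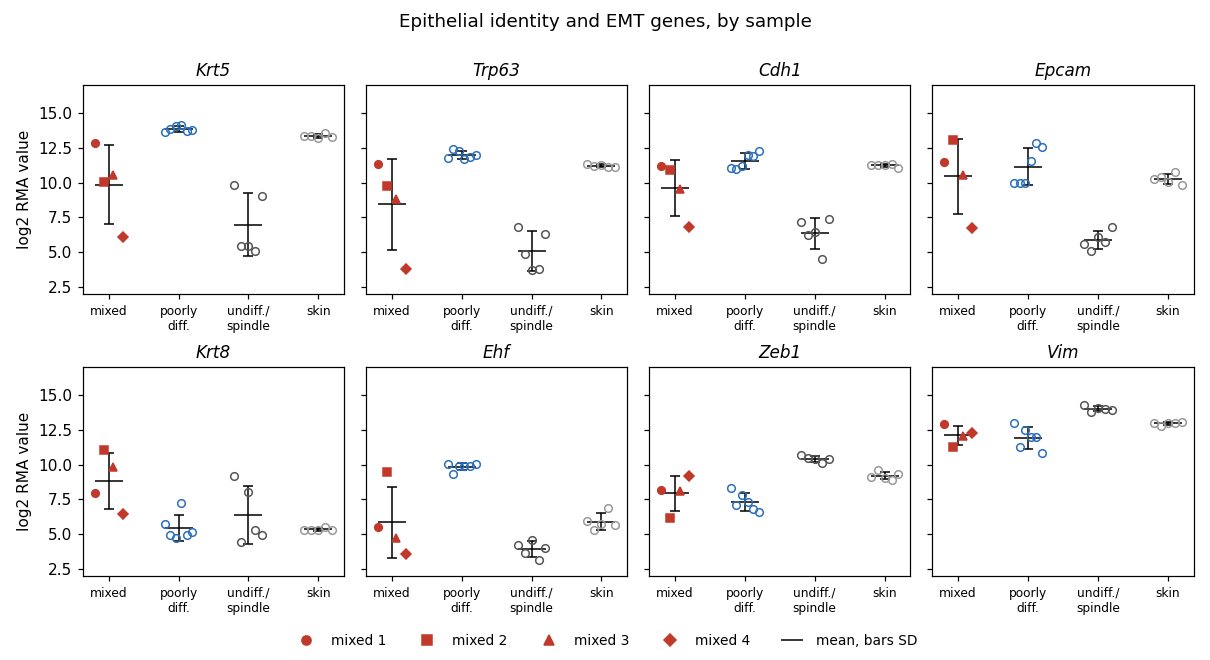
Log2 RMA level of 8 epithelial and mesenchymal genes in mixed, poorly differentiated, undifferentiated or spindle cell, and skin samples (points are samples, bars the mean with SD, symbols mark mixed tumors 1 to 4). Krt5 runs over the mixed tumors between 6.05 and 12.83, while the poorly differentiated tumors sit between 13.60 and 14.10.

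Mesenchymal genes were called at about the share of all genes. Of 34 members of the list for epithelial-mesenchymal transition (EMT), 1 was higher and 3 were lower in mixed than in poorly differentiated tumors, beside 7.39% of all genes higher and 6.95% lower, with a median of 0.21. The higher member was Sox4, a transcription factor of the SoxC group (difference 0.91, adjusted p = 0.0293), and the lower were S100a4 (-2.23, 0.0462), Tgfbi, a matrix protein induced by TGF-beta (-1.98, 0.0218), and Itga5, the fibronectin receptor chain (-1.33, 0.0194). None of these 4 calls but that of Itga5 held on leaving out each tumor in turn, and none but that of Sox4 held with genotype as a covariate. Vim, the intermediate filament protein vimentin, was chosen after its values were seen, as were Zeb1 and Cdh2. It was at 12.91, 11.24, 12.03 and 12.27 in mixed tumors 1 to 4 and 10.85 to 12.97 (median 11.96) in poorly differentiated tumors (difference 0.20, SE 0.44, limma adjusted p = 0.81), so the classes overlapped. Zeb1, a repressor of Cdh1, was at 8.17, 6.20, 8.14 and 9.22 and 6.57 to 8.32 (median 7.21) in the same order (difference 0.61, adjusted p = 0.509).

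Against the 5 undifferentiated and spindle cell carcinomas, mixed tumors as a class were higher in genes of epithelial identity and junctions. They were lower in EMT and macrophage genes, with no call among the cornification genes. In that comparison 808 genes were higher (4.44%) and 1188 lower (6.53%) in mixed tumors, and the median difference over all genes was -0.0096. The higher count was 498 without mixed tumor 3, 478, 523 and 429 without undifferentiated tumor 1, 2 or 3, and 498 without spindle cell carcinoma 2. The suprabasal list had no member called by limma in either direction, with 2 at an unadjusted p under 0.05 (median -0.05), and the stress list had 1 higher and 2 lower (median 0.07). Of the identity regulators 10 of 27 were higher (median 1.93) and of the junction genes 6 of 29 (median 1.64). Mixed tumor 4 lay inside the range of these carcinomas for both lists. Relative to the poorly differentiated mean, its median member was at -3.57 for identity regulators (range -3.63 to -3.17) and -3.10 for junction genes (-3.88 to -2.69). The EMT list had none higher and 14 of 34 lower (median -1.11), and the macrophage list 19 of 24 lower (median -2.63). Sprr1b differed by -0.27 (SE 0.94, limma adjusted p = 0.893), which leaves a wide interval, whereas Epcam was higher in mixed tumors by 4.60 (adjusted p = 0.0282). Vim was lower (difference -1.89, adjusted p = 0.00469), as were Zeb1 (-2.48, 0.0159) and Cdh2, the N-cadherin (-3.74, 0.0171). Fosl1 also lay below these carcinomas (difference -3.99, adjusted p = 0.000544). Both comparisons share the mixed tumors, so they are not independent of each other.

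**Figure D4:**
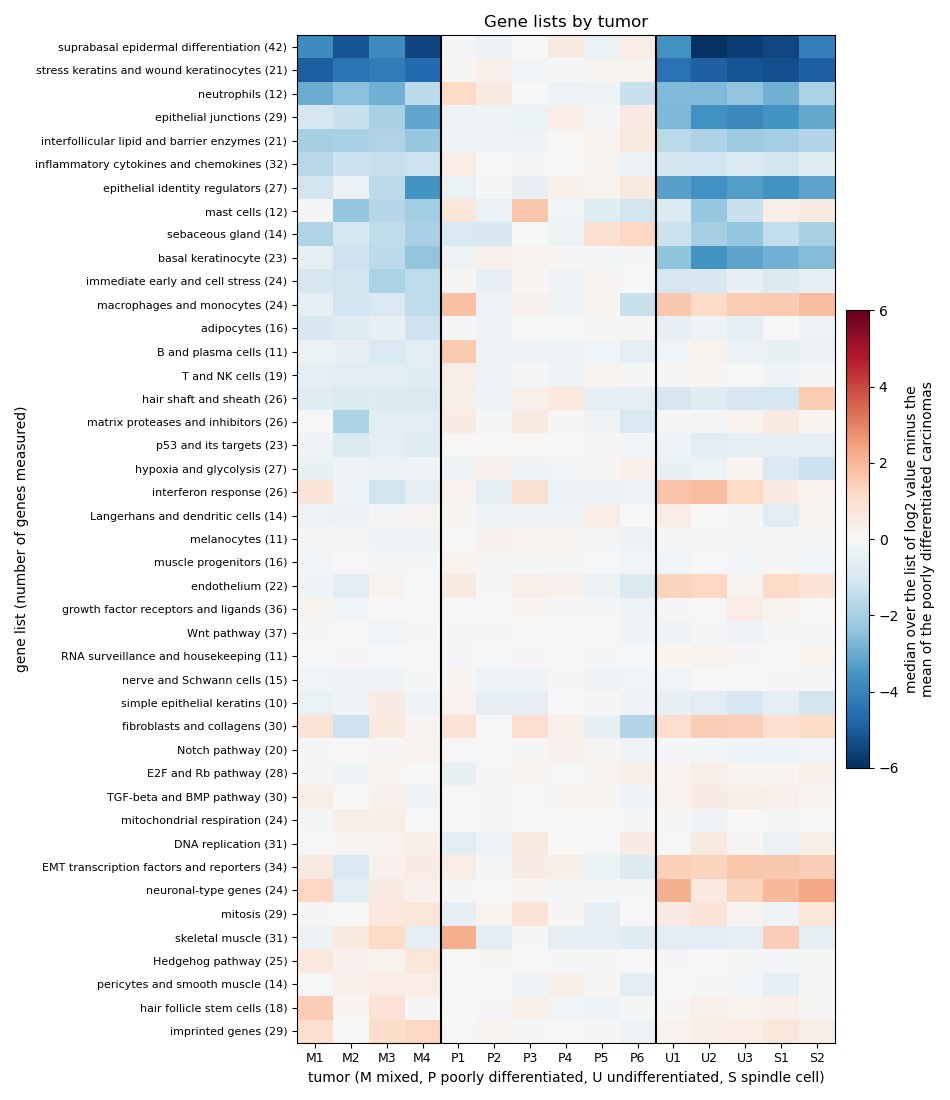
Heatmap of gene lists (down) by tumor (across), coloured by the median over members of the log2 level minus the mean of the poorly differentiated tumors. The suprabasal list is low in all 4 mixed tumors, between -5.4995 and -3.755, while the basal list runs over them between -2.35 and -0.59.

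Most lists of stroma genes differed between the classes at about the share of all genes or below it, and the adipocyte and matrix protease lists above it. Of 16 adipocyte genes 3 were lower in mixed tumors and none was higher (median -0.70). The lower count was 1 with genotype as a covariate and without mixed tumor 1, 3 or 4. The mean of that list was 5.50 to 6.15 in mixed tumors and 6.29 to 6.97 in poorly differentiated tumors. Of 30 fibroblast and collagen genes 2 were higher in mixed tumors and 1 was lower, and the mean of the list overlapped between the classes. Col14a1, a collagen that coats fibrils, was at 11.60, 8.55, 11.41 and 9.68 in mixed tumors 1 to 4 and 4.98 to 8.39 (median 6.48) in poorly differentiated tumors, with no overlap (difference 3.53, SE 0.80, limma adjusted p = 0.0174, or 0.0564 without mixed tumor 3). Postn, the matrix protein periostin, was lower (-2.24, adjusted p = 0.00626). Of 26 proteases and inhibitors 7 were lower, or 4 without mixed tumor 4, and 1 was higher. Mmp9, a gelatinase of leukocytes and tumor cells, was at 8.82, 5.58, 7.67 and 8.62 in the mixed tumors and 10.40 to 12.24 (median 11.18) in poorly differentiated tumors (difference -3.58, adjusted p = 0.00712). Mmp13, a collagenase, was at 9.15, 5.86, 9.67 and 9.65 and 11.18 to 12.33 (median 11.92) in the same order, lowest in mixed tumor 2 (difference -3.22, adjusted p = 0.0137). Endothelial genes gave 1 of 22 lower, and pericyte, skeletal muscle, Schwann cell, melanocyte and red blood cell lists gave no limma call in either direction, with 1, 1, 5, 1 and 1 members at an unadjusted p under 0.05, in that order, and up to 3 under the alternatives.

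Among the genes higher in mixed tumors, those with the largest differences were Adamts20, Hhip, Mia, Igf2, Peg3, Sox11, Col8a2, Foxa2, Ppp1r3c, Igfbp5, Gpc3 and Shisa2. Mia, a secreted protein known from cartilage and melanoma, was at 11.44, 9.75, 10.48 and 9.31 in mixed tumors 1 to 4, against 4.24 to 5.95 (median 4.65) in poorly differentiated tumors. All 4 mixed tumors were high (difference 5.41, SE 0.46, limma adjusted p = 0.000128). Adamts20, a metalloprotease that melanoblasts need in order to colonise mouse skin, was at 9.10, 7.36, 11.25 and 10.84 in the mixed tumors and 3.38 to 3.99 (median 3.67) in poorly differentiated tumors (difference 5.98, SE 0.64, adjusted p = 0.000449). Mixed tumor 2 had the lowest value of its class and still lay far above the other class.

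Col8a2, a chain of collagen VIII, was at 9.58, 7.79, 10.79 and 10.67 in mixed tumors 1 to 4, against 4.39 to 5.82 (median 4.97) in poorly differentiated tumors (difference 4.75, adjusted p = 0.000672). Shisa2, which holds Wnt and FGF receptors in the cell, was at 8.92, 10.70, 7.79 and 9.12 and 4.02 to 5.55 (median 4.57) in the same order, and here mixed tumor 2 was the highest (difference 4.45, adjusted p = 0.000661). Neither gene overlapped between the classes. Igfbp5, a binding protein of insulin-like growth factors (difference 4.47, adjusted p = 0.00207), and Ppp1r3c, a glycogen-targeting phosphatase subunit (4.55, 0.00301), were likewise high in all 4.

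Several Hedgehog pathway genes, Ptch1, Hhip and Gli1 among them, were high in mixed tumors 1, 3 and 4 and not in mixed tumor 2. The list was assembled after values had been seen and is a description only. Hedgehog ligands bind the receptor Patched, which frees Smoothened and activates Gli transcription factors, and the pathway is needed for hair follicle growth and is active in basal cell carcinoma. Of 25 measured members 8 were higher in mixed tumors and none was lower (median 0.42), beside 7.39% and 6.95% of all genes. The higher count was 10 without mixed tumor 2, 5 without mixed tumor 4, 7 with genotype as a covariate and 0 within Trp53ΔEC tumors. In every mixed tumor, mixed tumor 2 included, the mean level of the list (7.12 to 8.16) was above that in every poorly differentiated tumor (6.69 to 6.90). So it was in every undifferentiated or spindle cell carcinoma (6.92 to 7.08) and skin sample (7.08 to 7.23), and skin overlapped the mixed tumors. Against undifferentiated and spindle cell carcinomas 4 members were higher in mixed tumors and 1 was lower (median 0.21), beside 4.44% and 6.53% of all genes.

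Ptch1, the receptor and itself a target of the pathway, was at 13.53, 8.96, 12.84 and 13.80 in mixed tumors 1 to 4, against 7.78 to 9.32 (median 8.29) in poorly differentiated tumors. Mixed tumors 1, 3 and 4 were high and mixed tumor 2 lay inside the poorly differentiated range (difference 3.93, SE 0.83, limma adjusted p = 0.0134). Hhip, a decoy receptor and target, was at 11.38, 4.43, 11.78 and 12.47 in the mixed tumors and 4.19 to 4.55 (median 4.44) in poorly differentiated tumors, split in the same way (difference 5.63, SE 1.33, adjusted p = 0.0208). Without mixed tumor 2 the difference was 7.49, while without mixed tumor 1, 3 or 4 the adjusted p was 0.0531, 0.0648 and 0.0592. Gli1, a transcription factor that reports pathway activity, was chosen after its values were seen, as was Gli2. It was at 12.47, 4.05, 8.52 and 13.98 in the mixed tumors and 4.62 to 5.95 (median 5.30) in poorly differentiated tumors, with mixed tumor 2 below all of them. Its difference, 4.45, did not pass the test (SE 1.59, adjusted p = 0.0917), but did without mixed tumor 2 (6.35, adjusted p = 0.00305). Gli2 was at 9.89, 6.14, 13.97 and 10.96 and 7.46 to 8.67 (median 7.89) in the same order, highest in mixed tumor 3 (difference 2.27, adjusted p = 0.232, or 3.64 and 0.0117 without mixed tumor 2).

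Further members were Scube3, a secreted protein of a family that helps release Hedgehog ligands (difference 2.34, limma adjusted p = 0.0031), and Kif7, a kinesin that carries the signal in the primary cilium (1.87, 0.017, or 0.0527 and 0.0505 without mixed tumor 3 or 4). Scube3 was at 5.19, 7.25, 6.64 and 7.31 in mixed tumors 1 to 4, all above the highest poorly differentiated tumor (4.502), and was high in mixed tumor 2 too. The ligand genes Shh, Ihh and Dhh, chosen after their values were seen, did not pass the test (limma adjusted p = 0.84, 0.723 and 0.294). The Gli binding letters GACCACCCA occurred in no promoter window of the 20 members that had one. They occurred in 0.289% of the 27025 genes with a window, and nothing follows from this about Gli binding.

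Foxa2, a transcription factor of endoderm and floor plate, shared the split with Ptch1, at 10.38, 4.37, 10.32 and 10.56 in mixed tumors 1 to 4 and 4.01 to 4.49 (median 4.30) in poorly differentiated tumors. Mixed tumor 2 lay inside the poorly differentiated range and the other 3 mixed tumors far above it (difference 4.61, SE 1.08, limma adjusted p = 0.0196, and 0.0514, 0.0622 and 0.0575 without mixed tumor 1, 3 or 4). Sox11, a factor of embryonic progenitors, was at 10.84, 5.98, 10.92 and 11.70 and 3.53 to 7.32 (median 4.67) in the same order, again lowest in mixed tumor 2 (difference 4.87, adjusted p = 0.0198, and 0.0501, 0.0615 and 0.0576 without mixed tumor 1, 3 or 4). Gpc3, a glypican that binds Hedgehog ligands and other growth factors, was at 12.03, 7.43, 13.09 and 11.96 and 5.67 to 7.71 (median 6.68), and mixed tumor 2 lay inside the poorly differentiated range (difference 4.46, adjusted p = 0.0132).

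**Figure D5:**
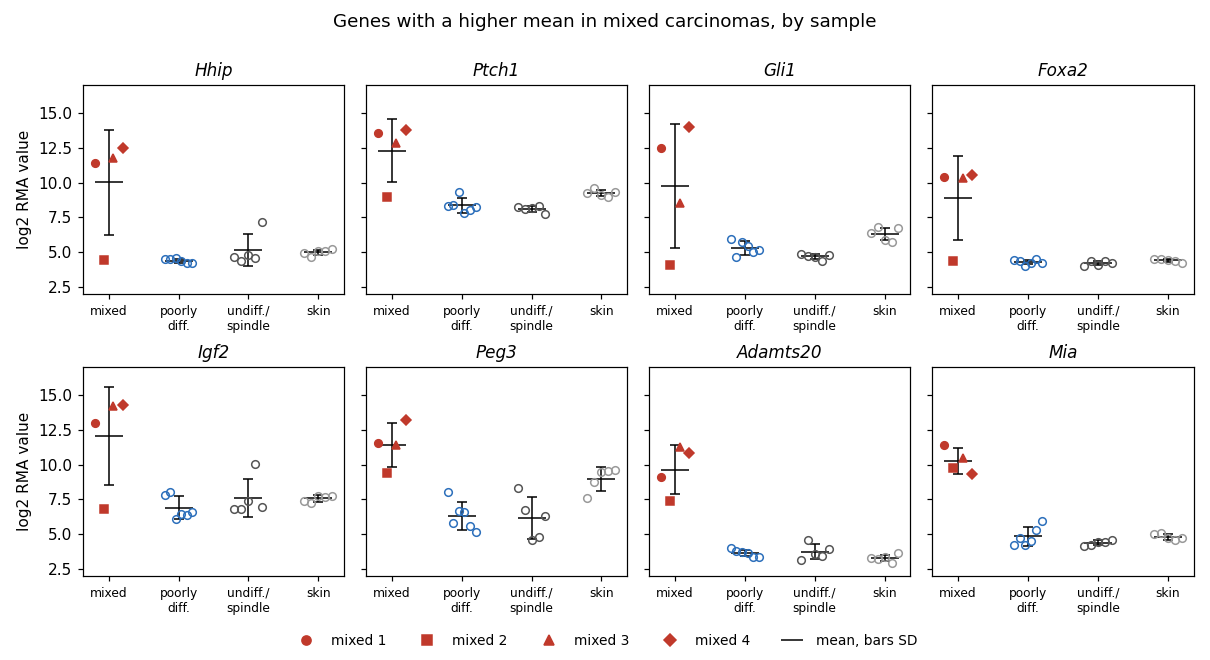
Log2 RMA level of 8 genes in mixed, poorly differentiated, undifferentiated or spindle cell, and skin samples (points are samples, bars the mean with SD, symbols mark mixed tumors 1 to 4). Hhip is at 4.43 in mixed tumor 2 and between 11.38 and 12.47 in the other mixed tumors, against 4.19 to 4.55 in poorly differentiated tumors.

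Imprinted genes, expressed from the allele of 1 parent, were a second group assembled after values had been seen. Of 29 measured members 8 were higher in mixed tumors and none was lower (median 1.10), beside 7.39% and 6.95% of all genes. The higher count was 13 without mixed tumor 2, 7 with genotype as a covariate and 1 within Trp53ΔEC tumors. Against undifferentiated and spindle cell carcinomas 3 were higher and none was lower (median 0.14), beside 4.44% and 6.53% of all genes. The mean of the list was 5.4727 to 6.3829 in poorly differentiated tumors. It was 6.58 to 7.89 in mixed tumors, 6.3846 to 7.1714 in undifferentiated and spindle cell carcinomas and 6.57 to 6.80 in skin. Igf2, a fetal growth factor, was at 12.98, 6.85, 14.20 and 14.27 in mixed tumors 1 to 4 and 6.10 to 8.07 (median 6.52) in poorly differentiated tumors. Mixed tumor 2 lay inside the poorly differentiated range and the others well above it (difference 5.18, SE 1.31, limma adjusted p = 0.0269). That call was lost with genotype as a covariate (5.20, adjusted p = 0.0565) and on leaving out any one tumor except mixed tumor 2 and poorly differentiated tumors 1 and 2, with an adjusted p of up to 0.0811. Peg3, a zinc finger protein expressed from the paternal allele, was at 11.54, 9.40, 11.43 and 13.24 in the mixed tumors and 5.19 to 8.06 (median 6.19) in poorly differentiated tumors, with all 4 mixed tumors above (difference 5.09, SE 0.73, adjusted p = 0.0021). Mest was at 10.83, 10.74, 10.06 and 9.98 and 5.95 to 8.45 (median 6.93) in the same order (difference 3.44, adjusted p = 0.00163). Dlk1, a Notch-like membrane protein chosen after its values were seen, was also without overlap (difference 1.92, adjusted p = 0.00175). Snhg14, the noncoding host of the Prader-Willi region snoRNAs, differed by 3.79 (adjusted p = 0.000267).

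Mixed tumor 2 had high genes of its own. Kit, the receptor of stem cell factor, was at 6.37, 12.10, 6.90 and 7.08 in mixed tumors 1 to 4 and 5.73 to 8.13 (median 6.29) in poorly differentiated tumors. Sox10, a factor of neural crest and of glandular epithelia, was at 6.30, 10.75, 6.63 and 6.47 and 6.16 to 6.73 (median 6.45) in the same order. Both were high only in mixed tumor 2 among these 10 tumors and did not pass the test (limma adjusted p = 0.382 and 0.392). Elf5, an ETS factor of mammary and other glandular epithelia chosen after its values were seen, was at 3.83, 11.16, 4.07 and 3.57 in the mixed tumors and 5.001 to 8.43 (median 7.51) in poorly differentiated tumors. It was above all of them in mixed tumor 2 and below all of them in the other mixed tumors (difference -1.48, adjusted p = 0.542, or -3.31 and 0.00991 without mixed tumor 2). Edar, the ectodysplasin receptor of skin appendages, was at 7.60, 10.45, 6.87 and 7.06 against 5.11 to 5.51 (median 5.17), high in all mixed tumors and highest in mixed tumor 2 (difference 2.74, SE 0.60, adjusted p = 0.0149). It was the only member of the hair shaft and sheath list that was higher. Of the 26 members 3 were lower, and the median difference was -0.60, beside 7.39% of all genes higher and 6.95% lower. The melanocyte list, which holds Kit and Sox10, had a mean of 5.42 to 6.39 in mixed tumors and 5.29 to 6.06 in poorly differentiated tumors, and none of its 11 members was called.

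Follicle and developmental pathways were uneven. Of 18 hair follicle stem cell genes 4 were higher and 1 was lower (median 0.94), and the higher count was 2 without mixed tumor 1 or 4 or poorly differentiated tumor 6 and 0 within Trp53ΔEC tumors. Tcf7l1, a Wnt pathway repressor of follicle stem cells, was at 9.73, 8.62, 10.18 and 10.13 in mixed tumors 1 to 4 and 7.21 to 8.13 (median 7.70) in poorly differentiated tumors (difference 1.95, SE 0.31, limma adjusted p = 0.00326). Every mixed tumor was above the poorly differentiated class. Of 37 Wnt pathway genes 5 were higher and 3 lower, beside 7.39% and 6.95% of all genes. Without poorly differentiated tumor 4 the higher count was 3, and none was called within Trp53ΔEC tumors. Wif1, a secreted Wnt inhibitor, was at 9.09, 9.22, 10.70 and 10.27 in the mixed tumors and 4.24 to 7.54 (median 6.12) in poorly differentiated tumors (difference 3.83, adjusted p = 0.00301), and it was also higher than in undifferentiated and spindle cell carcinomas (difference 6.66, adjusted p = 0.000225). Fzd2, a Wnt receptor, was higher (2.64, adjusted p = 0.00386). The ligands Wnt10a (-3.39, 0.00217) and Wnt4 (-2.58, 0.00228), both made by keratinocytes, were lower. Hey1, a Notch target, was at 6.97, 10.19, 9.10 and 10.23 and 5.99 to 6.58 (median 6.28), without overlap (difference 2.85, adjusted p = 0.00922), while the Notch ligands Jag1 (-1.49, 0.0333) and Jag2 (-1.45, 0.0476) were lower, and neither was called without mixed tumor 3 or 4 or poorly differentiated tumor 2, 4, 5 or 6. Of 20 Notch pathway genes 1 was higher and 2 were lower (median 0.03). Of 30 TGF-beta and BMP pathway genes 1 was higher and 3 were lower (median 0.06), beside 7.39% and 6.95% of all genes. Id1, a target of BMP signaling, was lower (-1.74, 0.00838), while the higher member was the BMP receptor Bmpr1a (difference 1.12).

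Mitosis genes were called at about the share of all genes. Of 29 members 3 were higher in mixed tumors (median 0.38), beside 7.39% of all genes, and of 31 DNA replication genes none was called by limma in either direction, with 2 at an unadjusted p under 0.05, while 4 were higher with genotype as a covariate and 2 with all 15 tumors in the fit. The mitotic members were Cenpf, a kinetochore protein (difference 1.08, limma adjusted p = 0.0102), Ccna2, a cyclin (1.07, 0.015), and Kif11, a spindle kinesin (1.05, 0.0289, a call lost with genotype as a covariate, with the median probeset, and without mixed tumor 1, 3 or 4 or poorly differentiated tumor 1 or 4, at adjusted p of 0.0513 to 0.0781). With the median probeset the call on Cenpf was lost too (adjusted p = 0.0628). Cenpf was at 8.81, 8.78, 8.40 and 9.29 in mixed tumors 1 to 4, against 7.24 to 8.03 (median 7.87) in poorly differentiated tumors, and the classes did not overlap. For p53 targets 7 of 23 were lower and 1 higher, and the lower count was 10 without mixed tumor 1, 4 without mixed tumor 4 and 4 without poorly differentiated tumor 1, 2, 5 or 6. Some of the lower are also epithelial genes. Sfn, an adaptor protein of keratinocytes, was at 9.53, 7.71, 8.04 and 4.27 in the mixed tumors and 11.29 to 12.64 (median 12.31) in poorly differentiated tumors (difference -4.77, adjusted p = 0.00525), and Perp, a desmosome protein, differed by -3.89 (adjusted p = 0.0399). The call on Perp was lost without mixed tumor 3 (0.0734) or any one of the poorly differentiated tumors. Cdkn1a, the cell cycle inhibitor p21, was at 8.87, 7.49, 8.30 and 9.71 and 10.53 to 12.16 (median 11.37) in the same order, without overlap (difference -2.76, adjusted p = 0.00472).

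In metabolism, 4 of 27 hypoxia and glycolysis genes were lower and none was higher, beside 6.95% and 7.39% of all genes. Slc2a1, the glucose transporter, was at 11.33, 10.78, 10.18 and 10.12 in mixed tumors 1 to 4 and 11.81 to 13.06 (median 12.40) in poorly differentiated tumors, all mixed tumors lying below the lowest of them (difference -1.75, SE 0.31, limma adjusted p = 0.00599). Pfkfb4, a regulator of glycolysis (-1.64, 0.000998), and Hif1a, the oxygen-regulated transcription factor (-1.19, 0.0121), were lower as well. Of 26 interferon response genes and of 11 RNA surveillance and housekeeping genes none was called by limma in either direction, with 3 and 5 at an unadjusted p under 0.05, and at most 1 in either direction under the alternatives.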

How the data were processed

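Total RNA from the tumors and skin was hybridised to Affymetrix MOE430 2.0 arrays. The deposited log2 values were made by the authors with RMA, per the submitters' processing notes, which corrects background, normalizes the arrays and summarizes probes into probesets, with no version given in the sources used here. RMA sets all arrays to 1 distribution, so differences are relative to the other genes.

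Of 45101 probesets, 45037 entered the tests, without the 64 controls of the array. The platform annotation gave 1 gene symbol for 34945, several for 932 and none for 9160, and 204 had an identifier not found in the RefSeq table used here. Each of 18193 genes was represented by its brightest probeset, judged on the mean of the 20 arrays. All sample columns were mapped to a labelled sample. Classes were compared with limma 3.58.1 (lmFit, eBayes, R 4.3.3) by a two-sided test. The p-values were adjusted by Benjamini-Hochberg across every gene or probeset tested, and the threshold was 0.05. Per-sample values, lists and figures were made in Python 3.11.15 with pandas 2.3.3, numpy 2.4.6 and matplotlib 3.10.9. The scripts were tested on simulated data. Standard errors (SE) are those of the fit.

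The text names up to 12 genes with the largest differences in each direction and up to 4 members of each of 45 lists, and says which others were chosen after their values were seen. The classes compared, the members and the lists were chosen with earlier results of these data known. Alternatives were all 15 tumors in the fit, genotype as a covariate or each genotype alone, the methods' t-test and an unequal-variance test (both Benjamini-Hochberg adjusted), trend and robust settings, centred or again quantile normalized arrays, a filter on dim features, the median probeset, and each tumor left out. Promoter windows are from RefSeq on GRCm38.p6 without those on chr18, and Krt6b and Krt16 had none.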

Additional observations from a re-analysis of the deposited data

Results flagged for a closer look

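In 228 classes of 4 or 6 tumors, 1 per gene named and class, 18 had an extreme tumor whose gap to the next, divided by the range of the class, was above the critical value of Dixon's test, which chance exceeds in about 1 of 20. Mixed tumor 2 gave 7 of these. It was the lowest mixed tumor for Hhip (4.425, the others at 11.381 to 12.466), Foxa2 (4.365, the others at 10.322 to 10.556), Sox11 (5.979, 10.838 to 11.702) and Mmp13 (5.861, 9.146 to 9.665). It was the highest for Kit (12.095, 6.371 to 7.082), Sox10 (10.749, 6.298 to 6.628) and Elf5 (11.155, 3.565 to 4.073). Mixed tumor 3 was the highest for Sprr1b (6.425, the others at 3.682 to 3.881), Sprr2d (6.567, 4.73 to 4.947) and Dsc1 (7.356, 3.679 to 4.154). Mixed tumor 4 was the highest for Cxcl3 (10.388, 3.636 to 4.486). Mixed tumor 1 was the highest for Icos (4.939, 4.449 to 4.525) and the lowest for Sdhb, a subunit of succinate dehydrogenase (11.257, 11.734 to 11.762).

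Among poorly differentiated tumors, tumor 1 was the highest for Ppp1r3c (7.216, the others at 4.352 to 5.307), tumor 3 for Ccna2 (10.375, 9.141 to 9.506) and tumor 4 for Dlk1 (6.216, 5.372 to 5.65). Tumor 2 was the lowest for Ehf (9.36, 9.869 to 10.064) and tumor 5 for Krt6b (13.566, 14.335 to 14.504). What set these tumors apart was not tested.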

How the results depend on the processing

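Few tumors and unequal genotypes limit these comparisons. No paired analysis was possible because the labels give histological classes no shared replicate numbers. Among Trp53ΔEC tumors alone (3 against 2), 13 genes were higher and 99 lower, and 9 probesets higher and 72 lower. Among RbΔEC; Trp53ΔEC tumors alone, 676 genes and 1005 probesets were lower. The unequal-variance test gave 377 genes higher and 493 lower, and 389 and 596 probesets, and the methods' t-test 1372 probesets higher and 1288 lower after adjustment. On leaving out 1 tumor, genes higher ranged over 853 to 1694 and genes lower over 832 to 1341, and probesets over 1509 to 3043 and 1262 to 2158. The lowest counts came without mixed tumor 3, and without mixed tumor 4 the probesets were 1517 and 1339. Against undifferentiated and spindle cell carcinomas, genes higher ranged over 429 to 999. The distance between minus within classes stayed past the test, at 0.04419 to 0.05576 with 1 tumor left out (one-sided exact permutation p = 0.00794 to 0.0119).

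Over 114 genes and these alternatives, 2051 gene values kept direction and side of the threshold, 291 lost their call, 15 gained one and 16 changed sign. With Trp53ΔEC tumors alone 87 of the 114 lost their call. The changes of sign were in genes that had not passed the test or, for Cxcl2 and Cxcl3, within RbΔEC; Trp53ΔEC tumors (0.741 and 0.016). Rb1 was -0.501 with genotype as a covariate, -0.395 and -0.661 within Trp53ΔEC and within RbΔEC; Trp53ΔEC tumors, and -0.115 to 0.524 with 1 tumor left out. Epcam was 1.71 within Trp53ΔEC tumors and -1.563 to 0.541 with 1 left out. Vim was -0.05 within Trp53ΔEC tumors, -0.075 as the median probeset and -0.067 to 0.489 with 1 left out. Zeb1 was -0.193 within Trp53ΔEC tumors and Cdh2 -0.91 within RbΔEC; Trp53ΔEC tumors. Where the alternative was not fewer tumors, the cause was not tested.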
